A study of Homo sapiens with 16 samples.

Results

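The genes described here are 73 chaperone genes of the 19077 gene entries that were counted, chosen by their symbols: the J-domain genes DNAJA (4), DNAJB (13) and DNAJC (29), the HSP70 genes HSPA (14), the cytosolic and reticular HSP90 genes (3), and the genes of the chaperonin CCT with TCP1 and the related CCT6B and CCT8L2 (10). By RefSeq accession 72 of the 73 matched a current gene, all under the same symbol; DNAJB3 did not match. The libraries come from HEK 293 cells, a transformed line of human embryonic kidney origin, and hold polyadenylated RNA that was precipitated by the RISC-trap method. In that method a dominant-negative form of GW182, a protein of the RNA-induced silencing complex (RISC), holds target mRNAs on the complex, so that transcripts bound through a microRNA (miRNA) can be collected. The study deals with primate miRNAs, and the question put to each chaperone transcript here is with which of them it was recovered most.

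Each of mir550-3p, mir1301-3p, mir1180-3p, mir1260a-5p, mir1271-5p and mir3613-5p had 2 of the 16 libraries. The remaining 4 are of mir124-3p, 3 titled Illumina and 1 titled Solid. The labels name HEK 293 cells, the RISC trap, Trizol and a SOLiD kit for all 16, give no sequencer for the 12 libraries of the 6 miRNAs, and name no library without a miRNA, so each of the 6 miRNAs was compared with the other 5, by the mean of their group means. The deposited column names of both mir550-3p libraries and of mir1301-3p replicate 2 hold the letters bio, which the labels do not explain. The libraries of mir1180-3p, mir1260a-5p, mir1271-5p and mir3613-5p are named Sample with a number. Whether these names mark separate preparations is not stated, and nothing else in the labels says that libraries of 1 miRNA came from separate cultures. The p-values therefore measure the spread between libraries, which may be technical.

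Cells keep newly made and stressed proteins soluble with a small set of machines. HSP70 proteins bind unfolded stretches in cycles of ATP hydrolysis, J-domain proteins deliver substrates and start that hydrolysis, and HSP90 acts on partly folded clients such as kinases and receptors. The chaperonin CCT, also called TRiC, is a double ring of different subunits that encloses actin, tubulin and other proteins while they fold. HEK 293 cells express most of these genes constitutively, and several are induced by heat or by unfolded protein in the endoplasmic reticulum.

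Of the 6 miRNAs with 2 libraries each, 3 had called members, and their mature sequences are from RefSeq on GRCh38.p14. They are shown because the seed, bases 2 to 8 from the 5′ end, in capitals, is the stretch that pairs with targets. The sequence of mir124-3p, which also had called members, was not in the reference used and is not shown.
mir550-3p (hsa-miR-550a-3p, 22 nt): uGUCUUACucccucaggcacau
mir1301-3p (hsa-miR-1301-3p, 24 nt): uUGCAGCUgccugggagugacuuc
mir1180-3p (hsa-miR-1180-3p, 22 nt): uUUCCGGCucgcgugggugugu
No seed is shared among them. The mir550-3p sequence lies in MIR550A2 at chr7:32733041-32733062 on the plus strand and in MIR550A3 at chr7:29680748-29680769 on the minus strand. The mir1301-3p sequence lies in MIR1301 at chr2:25328651-25328674 and the mir1180-3p sequence in MIR1180 at chr17:19344513-19344534, both on the minus strand. Seed matches in the chaperone transcripts were not analysed here.

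Total counts lay between 7612758 and 26527365 per library, and chaperone genes took from 0.654% to 1.53% of them. The 2 mir550-3p libraries were at 1.17% and 1.53%, and mir1301-3p replicate 1 was at 1.2%. Levels are given as counts per 1000000 (CPM) scaled by the trimmed mean of M values (TMM). Over the 12 libraries of the 6 miRNAs, 22 chaperone genes averaged at least 100 CPM, 34 from 10 to under 100, 10 from 1 to under 10, and 7 under 1 CPM. HSPA1A and HSPA6 did not pass the filter on low counts in these 12 libraries, which left 71 tested; with the mir124-3p libraries added HSPA6 alone did not pass, which left 72. Libraries differed in ways that touch the results. The 5 fibroblast markers (COL1A1, COL1A2, COL3A1, DCN and LUM) summed to 47.8 and 141 CPM in mir1301-3p, against 6.38 to 19.6 CPM in the other 10 libraries. All 5 were called higher, where 11.5% of all genes were. The 9 markers of HEK 293 summed to 1200 and 1450 CPM in mir1301-3p and to between 1550 and 2510 CPM in the other 10. Most of that sum was VIM and NEFL. Of the 9 only GAL was called, lower, where 4.39% of all genes were, and 3 had a positive log2 fold change. LHX1 was highest of the 12 libraries in mir1301-3p replicate 2, at 84.7 CPM. TNRC6A, the gene of GW182, took 1.45% and 1.49% of counts in mir550-3p and from 0.665% to 1.13% in the other 10; it took 4%, 1.07% and 3.97% in mir124-3p Illumina and 5.11% in mir124-3p Solid. The part of these differences in the results below was not tested.

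With mir550-3p 5 chaperone genes were recovered more than with the other 5 miRNAs, and none less: DNAJA2, the CCT subunits CCT4 and CCT7, DNAJC8 and DNAJC19. A gene was called at an adjusted p under 0.05 (edgeR's quasi-likelihood test with Benjamini-Hochberg adjustment over all genes tested). The 5 are 7.04% of the 71 tested, where 1.51% of all 17658 genes were called in either direction and 1.2% were called higher. Both mir550-3p libraries lay above all libraries of the other 5 miRNAs in 7 of the 71 and in 728 of all 17658 genes. In bulk pulldowns such as these, recovery from fewer cells and less RNA per cell cannot be told apart, and no unprecipitated RNA was analysed here.

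DNAJA2, a cytosolic J protein that serves HSP70 and HSC70, was the J-domain gene that stood out most. It had 722 and 839 CPM in the 2 mir550-3p libraries, against a lowest of 62.8, a median of 104 and a highest of 158 CPM in the other 10. Both mir550-3p libraries lay far above every other one. The 3 other DNAJA genes were not called. The log2 fold change was 2.84 ± 0.24 (SE; adjusted p = 1.17e-05), from means of 802 ± 42.1 CPM (SD, n = 2) and 113 ± 28.3 CPM (SD, n = 10) scaled over the 12 libraries. In the mir124-3p libraries the gene stayed in the range of the rest, at 106, 111 and 110 CPM in Illumina and 139 CPM in Solid.

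DNAJC8, a nuclear J protein found with the splicing machinery, had 438 and 391 CPM in mir550-3p, against a lowest of 52.4, a median of 93.9 and a highest of 165 CPM in the other 10. The groups did not overlap, and the lowest levels among the other 10 were in mir1301-3p. The log2 fold change was 2.13 ± 0.23 (adjusted p = 0.000142). DNAJC19, a J protein of the import motor at the inner mitochondrial membrane, had 140 and 157 CPM in mir550-3p, against a lowest of 39, a median of 63.4 and a highest of 112 CPM. Its groups were apart too, with mir1271-5p nearest. The log2 fold change was 1.19 ± 0.24 (adjusted p = 0.0184).

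Among the chaperonin genes CCT4, the delta subunit, had 3431 and 5860 CPM in mir550-3p, against a lowest of 321, a median of 630 and a highest of 1838 CPM in the other 10. Both mir550-3p libraries were above all others, although CCT4 also varied between libraries of 1 miRNA, with 1838 and 634 CPM in mir1180-3p. The log2 fold change was 2.41 ± 0.33 (adjusted p = 0.00152). CCT7, the eta subunit, had 404 and 539 CPM in mir550-3p, against a lowest of 60.6, a median of 158 and a highest of 251 CPM, again without overlap. Its log2 fold change was 1.56 ± 0.27 (adjusted p = 0.00649). CCT4 overlaps COMMD1, which was not called (log2 fold change 1.05, adjusted p = 0.137). The other 8 CCT genes were not called. CCT3, the gamma subunit, lay above the other 10 libraries in both mir550-3p libraries, at 267 and 250 CPM, but its log2 fold change of 0.61 had an adjusted p of 0.226. TCP1, the alpha subunit, had a log2 fold change of 0.20 with an adjusted p of 0.814. Of the 10 CCT genes 9 had a positive log2 fold change, with a median of 0.45.

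**Figure D1:**
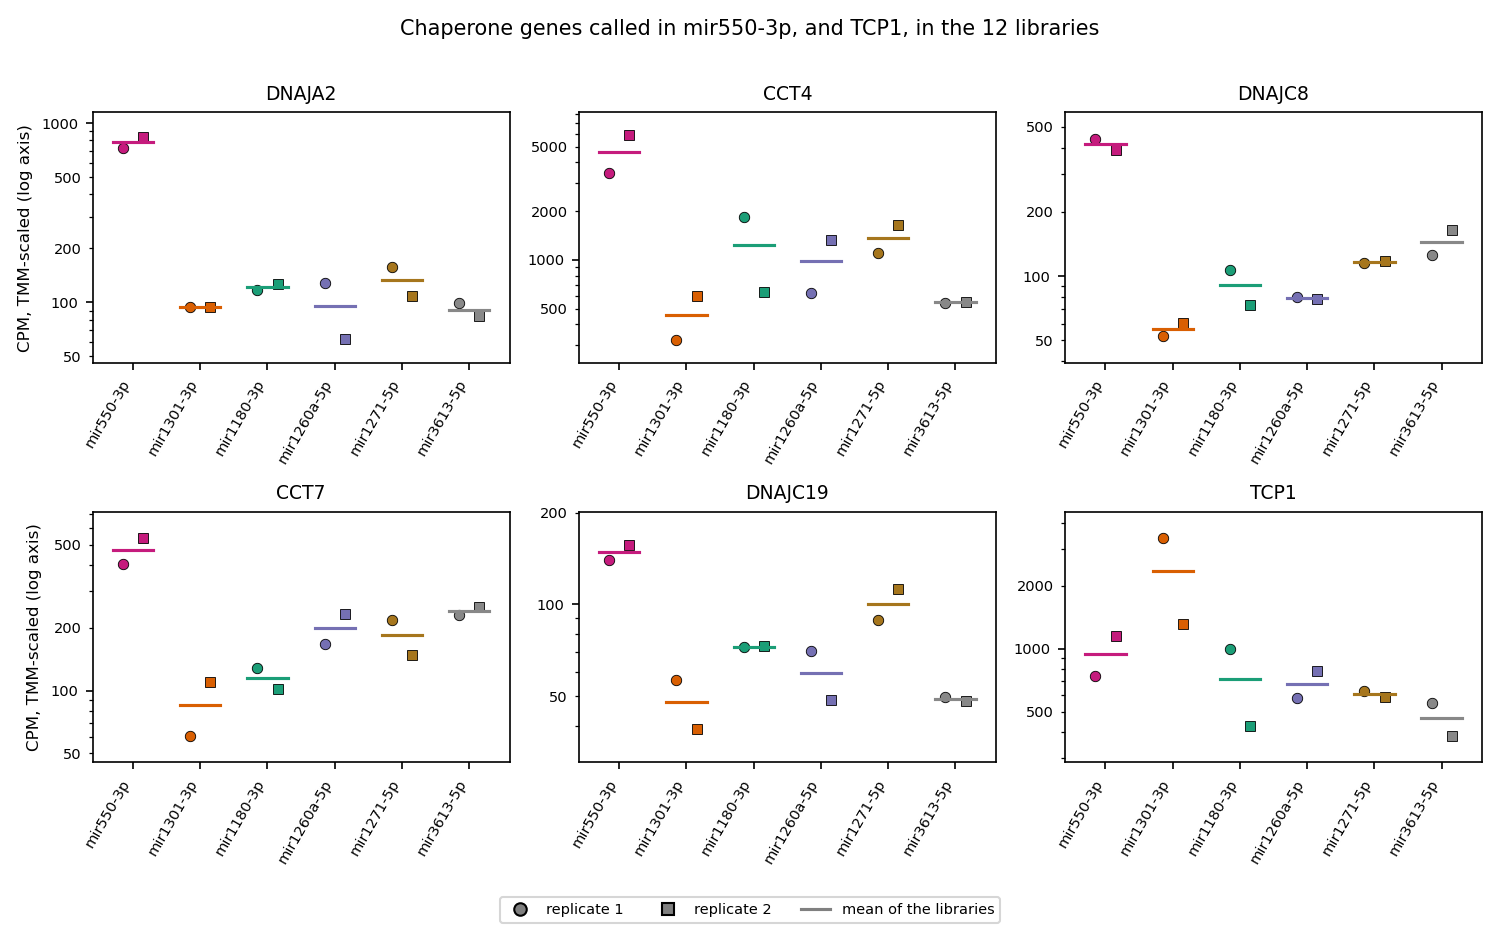
Level of 6 chaperone genes in each of the 12 libraries, as TMM-scaled CPM on a log axis, with a symbol per library and a line at the mean of the 2 libraries of each miRNA. DNAJA2, CCT4, DNAJC8, CCT7 and DNAJC19 are highest in both mir550-3p libraries, and TCP1 is highest in both mir1301-3p libraries (3378 and 1311 CPM).

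The calls did not rest equally on both mir550-3p libraries. With either left out, which leaves 1 library, most calls over all genes were lost. DNAJA2 and DNAJC8 were called whichever library was left out. Without mir550-3p replicate 2 only these 2 were called, and the adjusted p of CCT4 was 0.151. Without replicate 1 they were called along with CCT4, while CCT7 and DNAJC19 missed the threshold without either library, at adjusted p-values of up to 0.28 and 0.346. With mir1301-3p taken out of the comparison DNAJC19 had a log2 fold change of 1.09 and an adjusted p of 0.0558.

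The whole set moved less than these 5 genes. The median log2 fold change of the 71 chaperone genes in mir550-3p was 0.249, against −0.0507 for all genes tested. Upper-quartile scaling moved the median of all genes by −0.121 here, and by 0.162 with mir1180-3p, −0.24 with mir1271-5p and −0.192 with mir3613-5p. HSPA14, the ribosome-bound HSP70, had 146 and 416 CPM in mir550-3p; it was called by DESeq2 but not by edgeR. HSPA12B and DNAJB3, both low, had the smallest log2 fold changes, −1.26 and −1.15, and were not called.

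Sums over a class compare its level between libraries, in TMM-scaled CPM, which are not shares of the recovered RNA. The DNAJA genes summed to 959 ± 114 CPM in mir550-3p (SD, n = 2) and to 232 ± 51.1 CPM in the other 10 libraries (SD, n = 10), a ratio of 4.12. Without DNAJA2 the ratio was 1.42. The CCT genes summed to 7921 ± 2424 CPM in mir550-3p and 3368 ± 987 CPM in the other 10, a ratio of 2.35 that was 1.34 without CCT4. In both classes the larger part of the difference lay in 1 gene. Without CCT4 the CCT sums of mir550-3p, 2776 and 3775 CPM, lay within the range of the other 10, which reached 4852 CPM. Without the TMM factor the CCT sum of mir1301-3p replicate 1 (6615 CPM) was above that of mir550-3p replicate 1 (5810 CPM). DNAJC, HSPA and DNAJB genes had ratios of 1.4, 1.41 and 1.21. The HSPA sums of mir550-3p, 1063 and 1338 CPM, and its DNAJB sums, 1132 and 1061 CPM, overlapped those of the other 10, which reached 1123 and 1207 CPM. For HSP90 the means were nearly equal, at 890 ± 145 CPM in mir550-3p and 889 ± 415 CPM in the other 10 libraries.

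**Figure D2:**
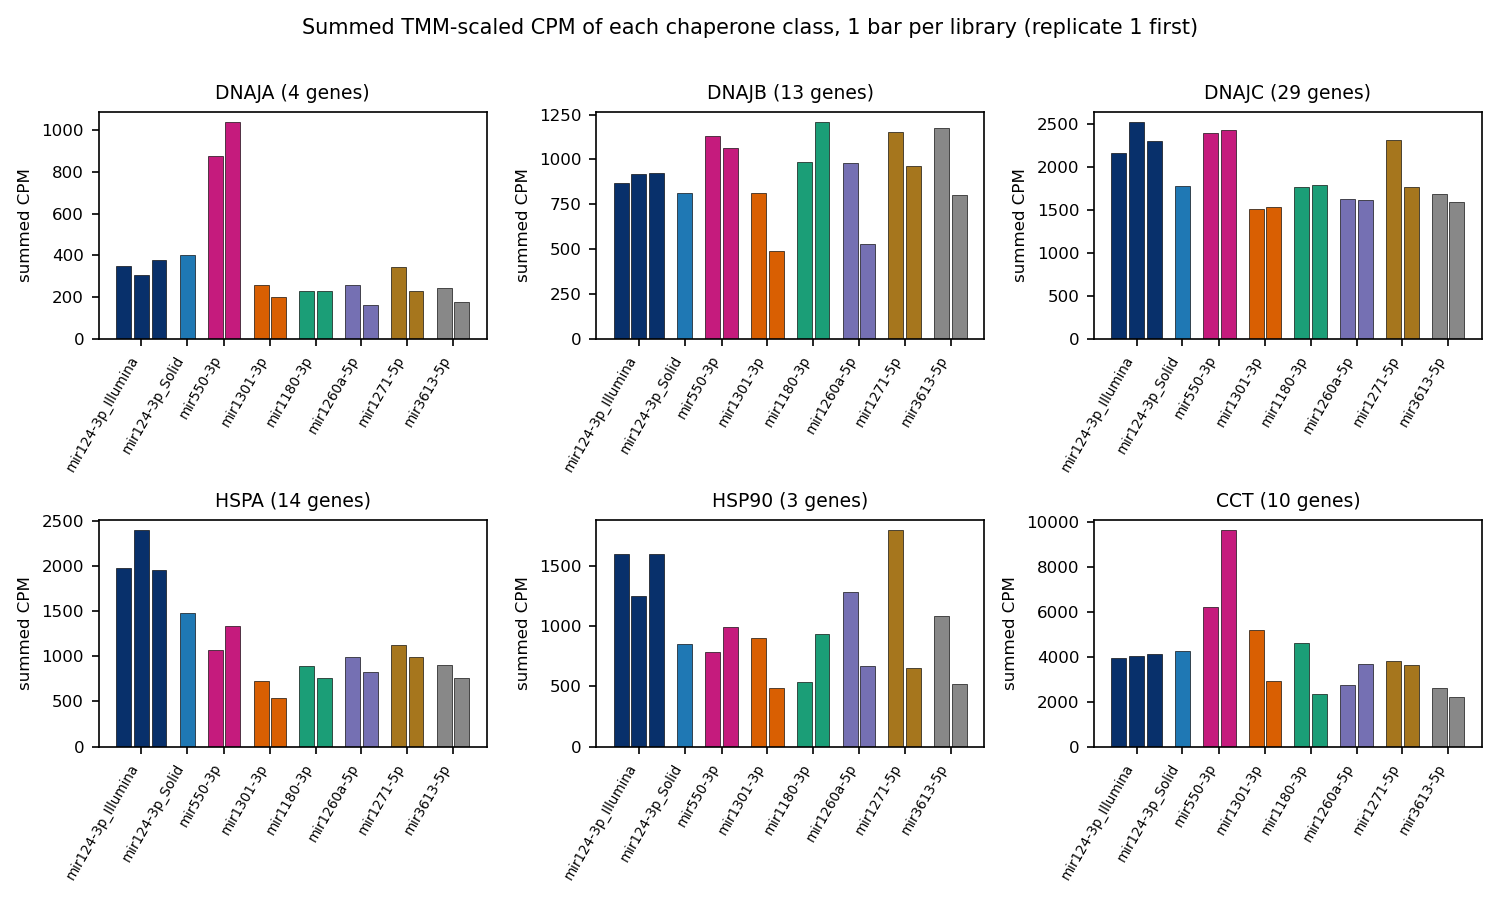
Summed TMM-scaled CPM of the genes of each chaperone class, with 1 bar per library and replicate 1 on the left within each miRNA. The DNAJA and CCT sums are highest in the 2 mir550-3p libraries (means of 959 and 7921 CPM), and the HSPA sums are highest in the 3 mir124-3p Illumina libraries (1980, 2393 and 1954 CPM).

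With mir1301-3p 11 chaperone genes were called, 5 higher and 6 lower. The 11 are 15.5% of the 71 tested, and 15.9% of all genes were called in this comparison, 11.5% higher and 4.39% lower, so the share of chaperone genes was near the background. The higher ones were TCP1, DNAJC15, DNAJC14, CCT8L2 and HSPA12B, and the lower ones HSPA14, CCT4, CCT7, DNAJC8, DNAJB1 and CCT3. Both mir1301-3p libraries lay above all libraries of the other miRNAs in 6 of the 71 and in 2546 of all 17658 genes. They lay below them in 8 and in 1199. The median log2 fold change was −0.359 for the chaperone genes and −0.0174 for all genes. The split depended on the processing. DESeq2 called 13, 3 higher and 10 lower. With upper-quartile scaling 14 were called, 11 higher and 3 lower, while the median of all genes was at 0.379, a shift of 0.396. Relative to the median of all genes the chaperone median was at −0.342 with TMM and −0.331 with upper-quartile scaling.

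TCP1, the alpha subunit of CCT, had 3378 and 1311 CPM in mir1301-3p, against a lowest of 384, a median of 611 and a highest of 1155 CPM in the other 10. Both mir1301-3p libraries were the highest of the 12, with replicate 1 well above replicate 2. The log2 fold change was 1.79 ± 0.31 (adjusted p = 0.00406), and without mir1301-3p replicate 1 the adjusted p was 0.161. TCP1 overlaps ACAT2, a gene of acetyl-CoA metabolism, which was higher in the same libraries with a log2 fold change of 2.14 ± 0.29 (adjusted p = 0.000571). Since no source used here states whether counting used the strand, reads of TCP1 and of ACAT2 cannot be told apart where the genes overlap. The same holds for other genes named here that overlap a neighbour in RefSeq: DNAJB1 with TECR, DNAJC14 with ORMDL2, DNAJC7 with CNP, DNAJC9 with FAM149B1, DNAJC11 with THAP3, DNAJB7 with XPNPEP3, DNAJC2 with PMPCB, DNAJC10 with PDE1A and HSP90AA1 with WDR20.

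DNAJC15, a J protein of the inner mitochondrial membrane related to DNAJC19, had 4.62 and 6.98 CPM in mir1301-3p, against a lowest of 0.482, a median of 1.85 and a highest of 3.65 CPM. The libraries did not overlap at these low levels, and the log2 fold change was 1.82 ± 0.42 (adjusted p = 0.0165). DNAJC14, a J protein of the endoplasmic reticulum membrane, had 28.6 and 36.3 CPM in mir1301-3p, against a lowest of 9.78, a median of 12.7 and a highest of 27.9 CPM (log2 fold change 1.18 ± 0.32, adjusted p = 0.0272). It was above the rest by a narrow margin, with 1 mir1180-3p library close behind. CCT8L2, a gene related to CCT8, had a log2 fold change of 1.5 (adjusted p = 0.0297) at 1.75 and 1.88 CPM, against 0.276 to 1.58 CPM in the other 10. HSPA12B, a distant HSP70 relative, had 1.64 and 4.30 CPM, against 0.482 to 2.04 CPM, and 1 library lay within the range of the others (1.49, adjusted p = 0.0429).

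Of the 6 lower genes, DNAJC8 fell by 1.28 on the log2 scale (adjusted p = 0.0155), CCT7 by 1.32 (adjusted p = 0.0204) and CCT4 by 1.52 (adjusted p = 0.0313). The mir550-3p libraries, high in these 3 genes, are part of what mir1301-3p was compared with. When they were left out, a choice made after seeing the data, the log2 fold changes were −0.89 for DNAJC8, −1.05 for CCT7 and −1.08 for CCT4, and none of the 3 was called (adjusted p = 0.0785, 0.0695 and 0.118). TCP1 and DNAJC15 were the 2 chaperone genes called then, where 1108 of all 17624 genes were called. CCT3, the gamma subunit, had 94.8 and 119 CPM in mir1301-3p, against a lowest of 159, a median of 185 and a highest of 267 CPM in the other 10; its log2 fold change was −0.86 ± 0.27 (adjusted p = 0.0427). HSPA14 had 65.3 and 38.8 CPM, against a lowest of 63.4, a median of 147 and a highest of 416 CPM, and fell by 1.60 (adjusted p = 0.0282). DNAJB1, the heat-inducible cytosolic HSP40, had 35.2 and 15.5 CPM, against a lowest of 33.2, a median of 53.3 and a highest of 61.9 CPM, and fell by 1.06 (adjusted p = 0.0467). In both genes 1 mir1301-3p library lay within the range of the others. With upper-quartile scaling CCT3, DNAJB1 and CCT4 were not called, at log2 fold changes of −0.48, −0.64 and −1.15 (adjusted p = 0.167, 0.173 and 0.0605). With either mir1301-3p library left out most calls of this comparison were lost, among the chaperone genes and over all genes alike. Such a fit leaves 1 library of mir1301-3p. In it the log2 fold change of TCP1 was 1.04 without replicate 1 and 2.275 without replicate 2. Leaving out a single library of another miRNA also cost the call of CCT3, DNAJB1, HSPA12B and CCT8L2, at adjusted p-values of up to 0.292, 0.381, 0.66 and 0.226 over all leave-outs.

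With mir1180-3p 1 chaperone gene was called, 1.41% of the 71 against 2.07% of all genes. This was DNAJC17, a nuclear J protein with an RNA-binding domain. It had 11.3 and 23.5 CPM in mir1180-3p, against a lowest of 0.684, a median of 2.02 and a highest of 2.98 CPM in the 10 other libraries. Both libraries were several times above the rest, and the log2 fold change of 3.03 ± 0.43 was the largest of any chaperone gene in the comparisons among the 6 miRNAs (adjusted p = 0.000339). Without mir1180-3p replicate 2 the adjusted p was 0.0614. DNAJC17 overlaps C15orf62, GCHFR and ZFYVE19, none of which was called with mir1180-3p. At the other end CCT7 and DNAJC11 had log2 fold changes of −0.95 and −0.87, and CCT8L2 one of 1.09, none of them called.

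No chaperone gene was called by edgeR with mir1260a-5p, mir1271-5p or mir3613-5p, where 0.215%, 0.606% and 0.0906% of all genes were called. The median log2 fold change of the chaperone genes was −0.0411, 0.27 and −0.0319 in these comparisons, against 0.02, 0.053 and 0.0131 for all genes. DESeq2 called none either. An unadjusted p under 0.05 was reached by 3, 9 and 7 of the 71, which is 4.23%, 12.7% and 9.86% of them, against 5.33%, 9.34% and 14.1% of all genes. With mir1260a-5p the largest log2 fold changes were those of DNAJB8 (1.30) and HSPA1B (0.96), and the smallest those of DNAJA2 (−0.79) and DNAJC17 (−0.72). With mir1271-5p they were DNAJC11 (1.16) and DNAJC25 (0.92), and HSPA12B (−0.93) and DNAJC4 (−0.90). With mir3613-5p they were DNAJC4 (1.28) and DNAJC5 (0.73), and DNAJC15 (−1.60) and CCT8L2 (−1.28). The direction of HSPA1B and of DNAJC11 in these comparisons turned when 1 library was left out; without mir1271-5p replicate 1 DNAJC11 was called.

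A single test per gene of whether the 6 miRNAs differed at all called 7 chaperone genes, 9.86% of 71, where 5.72% of all genes differed. They were DNAJA2 (adjusted p = 7.4e-05), DNAJC8 (0.000382), CCT4 (0.00362), CCT7 (0.00763), DNAJC17 (0.00852), DNAJC19 (0.0264) and TCP1 (0.0266). No DNAJB, HSPA or HSP90 gene was among them. Upper-quartile scaling called 11 of the chaperone genes, where 1663 of all 17658 genes were called. Without mir550-3p 2 chaperone genes were called, where 419 of all 17624 genes were.

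**Figure D3:**
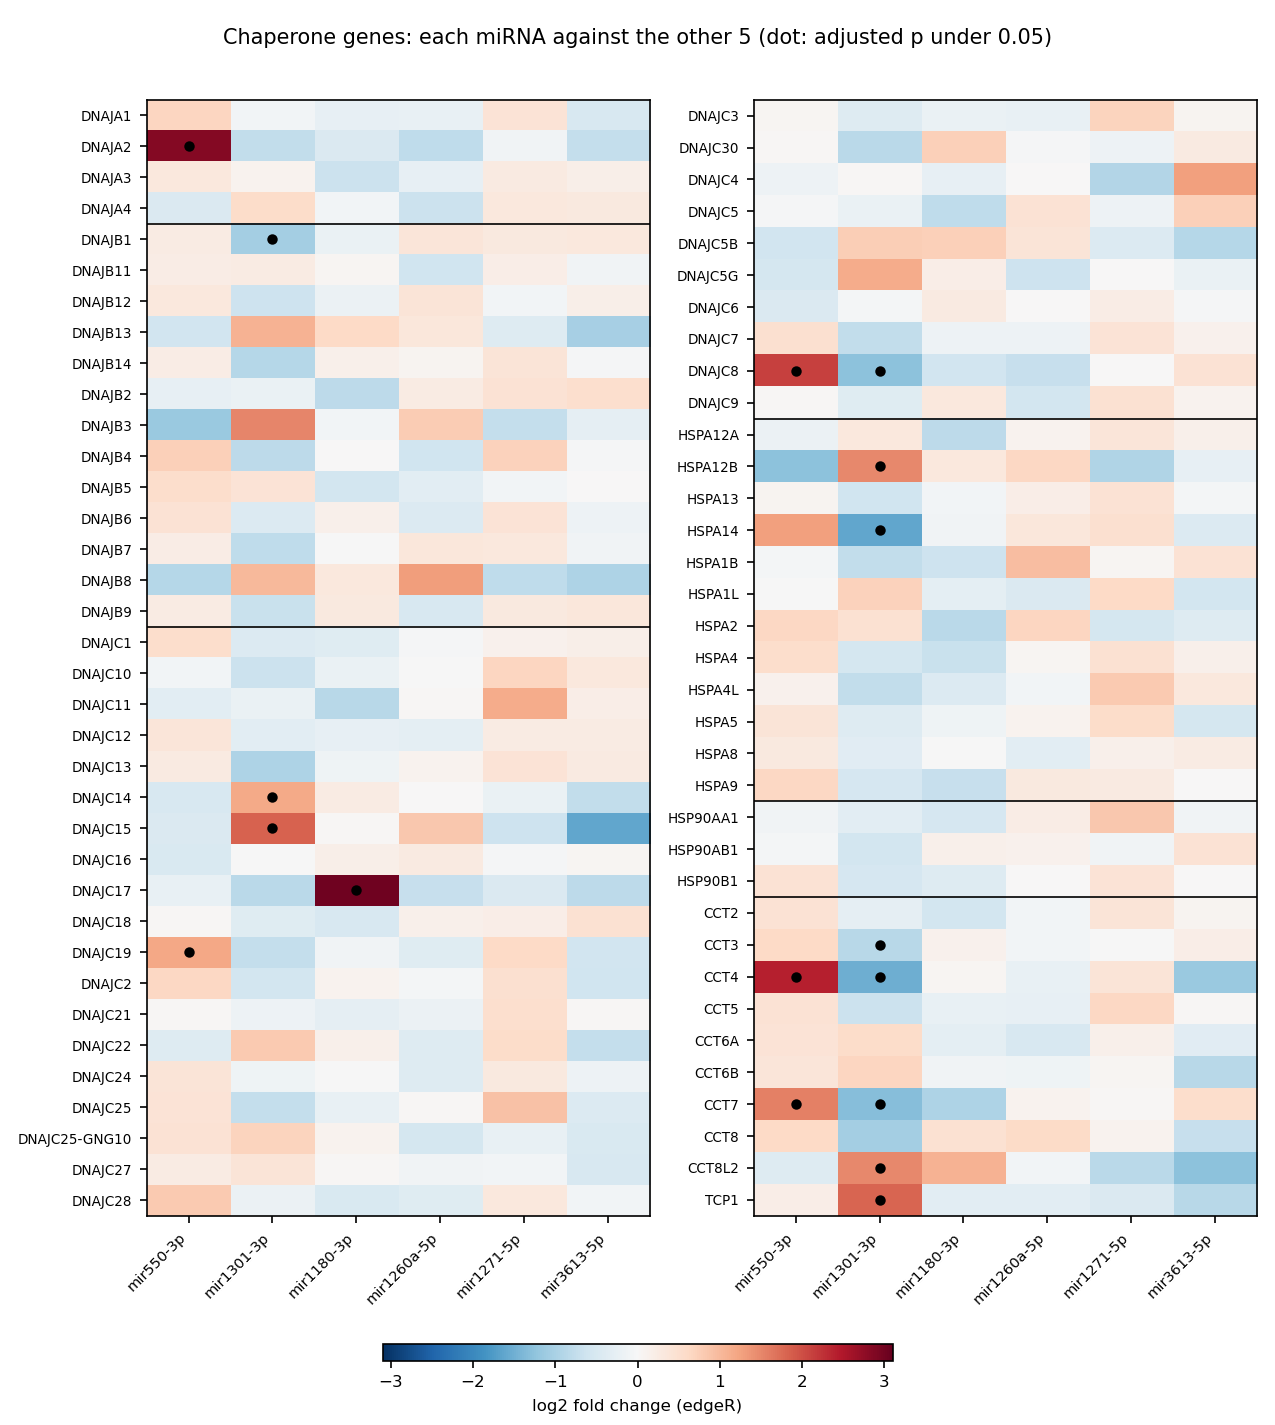
Log2 fold change (edgeR) of the 71 tested chaperone genes for each miRNA against the other 5, by class, from blue (lower) to red (higher), with a dot where the adjusted p was under 0.05. The dots lie in the columns of mir550-3p (5 genes), mir1301-3p (11) and mir1180-3p (1, DNAJC17 at 3.03).

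Several abundant chaperone genes had a larger SD between the 2 libraries of 1 miRNA than between the miRNA means. HSP90B1, the HSP90 of the endoplasmic reticulum, was one of them. Replicate 1 exceeded replicate 2 by 1.08 with mir1260a-5p, 1.47 with mir1271-5p, 1.89 with mir1301-3p and 2.01 with mir3613-5p on the log2 CPM scale, while the difference was −1.2 with mir1180-3p and 0.175 with mir550-3p. Its SD within miRNAs was 1.02 and its SD between the miRNA means 0.404. HSP90AA1, the stress-inducible cytosolic HSP90, had differences of 1.01, 1.73, 0.736 and 1.3 in the same 4 miRNAs and −0.756 and −0.468 in mir1180-3p and mir550-3p. DNAJA1, a cytosolic partner of HSP70, had 1.46, 1.32, 1.56 and 1.31, and −0.441 and −0.673. HSPA4L, of the HSP110 family, had 1.2, 1.26, 1.66 and 1.31, and −0.646 and −0.398. The differences of these 4 genes were positive with mir1260a-5p, mir1271-5p, mir1301-3p and mir3613-5p, and negative with mir1180-3p and mir550-3p, except for HSP90B1 with mir550-3p. HSPA13 had the same signs. Opposite signs throughout were those of DNAJC4, with −2.19, −0.443, −2.27 and −0.501, and 0.961 and 0.25. HSPA1B, CCT8, DNAJC11 and HSPA14, also among the genes of largest spread, had mixed signs.

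Among the 71 genes 42 (59.2%) had a larger SD within miRNAs than between the miRNA means, against 50.1% of all genes. The former is of single libraries and the latter of means of a pair, which averaging narrows. The comparison thus does not show which source of spread was larger. The median SD within miRNAs was 0.448 for chaperone genes and 0.483 for all genes, and the median between miRNA means 0.418 and 0.49. The labels do not say whether libraries with the same replicate number were handled together.

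**Figure D4:**
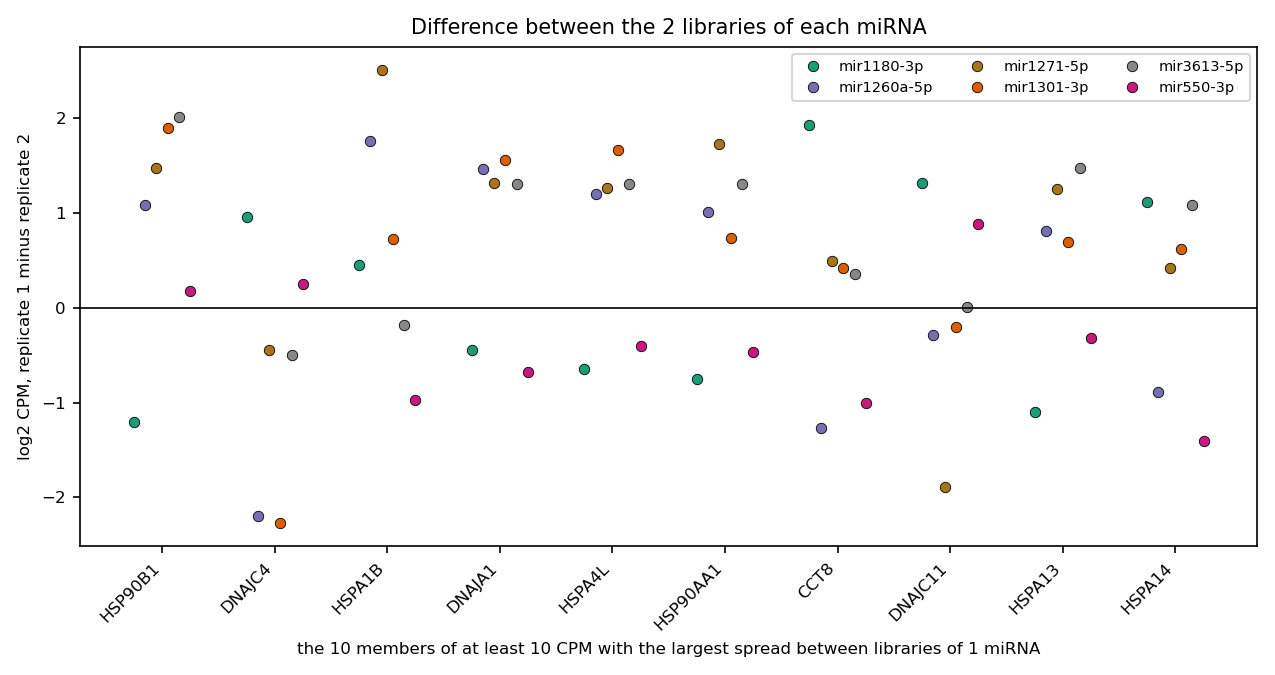
Log2 CPM of replicate 1 minus replicate 2 for each of the 6 miRNAs, for the 10 chaperone genes of at least 10 CPM with the largest spread between libraries of 1 miRNA. HSP90B1, DNAJA1, HSPA4L, HSP90AA1 and HSPA13 lie above 0 for the same 4 miRNAs, with HSP90B1 between 1.08 and 2.01. DNAJC4 lies below 0 for these 4.

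The most abundant of the other genes of each class were these. HSPA8, the constitutive HSC70, lay between 232 and 418 CPM with a median of 263 CPM, and was not called for any of the 6 miRNAs. HSPA5, the BiP of the endoplasmic reticulum, lay between 91.6 and 204 CPM (median 135), and HSP90AB1, the constitutive cytosolic HSP90, between 69.0 and 147 CPM (median 111). These are the main HSP70 and HSP90 proteins of unstressed cells. DNAJB9, a reticular J protein induced by unfolded protein, lay between 275 and 896 CPM (median 655), DNAJB6, which holds back aggregation of polyglutamine proteins, between 37.2 and 115 CPM (median 75.9), and DNAJB11, a reticular partner of BiP, between 38.9 and 104 CPM (median 60.1). In the DNAJC class DNAJC2, the ribosome-bound partner of HSPA14, lay between 137 and 377 CPM (median 211), DNAJC27, a small GTPase with a J domain, between 112 and 253 CPM (median 197), and DNAJC10, a disulfide reductase of the endoplasmic reticulum, between 89.6 and 312 CPM (median 148). None of these genes was called for any of the 6 miRNAs. DNAJA3, the mitochondrial J protein, lay between 33.3 and 85.7 CPM (median 70.6), and CCT5, the epsilon subunit, between 187 and 556 CPM (median 350); neither was called.

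With mir124-3p Solid 13 chaperone genes were called against the 6 miRNAs, 12 higher and 1 lower. This is 18.1% of 72, where 8.89% of all 18135 genes were called, 7.31% higher and 1.58% lower. The Solid library lay above all libraries of the 6 miRNAs in 19 of the 72 and in 3192 of all 18135 genes. The higher genes lay in 5 classes: CCT3, CCT7 and CCT2 of the chaperonin, HSP90AB1, the HSP70 genes HSPA4, HSPA9 and HSPA1A, and the J-domain genes DNAJC7, DNAJC8, DNAJC11, DNAJB5 and DNAJB12. There was 1 library, assumed to vary like the other groups, and the comparison also sets 1 run against others whose sequencer is not named, so miRNA and run cannot be told apart.

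CCT3 had 692 CPM in mir124-3p Solid, against a lowest of 94.8 and a highest of 267 CPM over the 12. Its log2 fold change was 1.84 ± 0.29 (adjusted p = 0.000634). The 3 mir124-3p Illumina libraries were also high, at 628, 578 and 646 CPM. HSP90AB1 had 384 CPM in Solid, against 69.0 to 147 CPM over the 12, with a difference of 1.72 ± 0.30 (log2; adjusted p = 0.00143), and 745, 508 and 760 CPM in Illumina. For both genes all 4 mir124-3p libraries lay above the other 12. DNAJC7, a J protein that bridges HSP70 and HSP90, had 177 CPM in Solid, against 25.8 to 63.5 CPM in the 12 libraries (log2 fold change 1.94 ± 0.36, adjusted p = 0.00239), and 146, 120 and 158 CPM in Illumina.

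The same held for CCT2, the beta subunit, at 448 CPM in Solid against 108 to 248 CPM in the 12 (log2 fold change 1.36, adjusted p = 0.0237). It held for HSPA4, an HSP110 exchange factor, at 282 CPM against 51.1 to 150 CPM (1.5, adjusted p = 0.0136), and for HSPA9, the mitochondrial HSP70, at 191 CPM against 32.9 to 118 CPM (1.44, adjusted p = 0.0337). In Illumina the lowest of the 3 libraries was still above the 12 for each of these 3 genes, at 332, 168 and 172 CPM. CCT7 was above the 12 libraries in Solid, at 651 CPM (1.69, adjusted p = 0.00424), whereas the 3 Illumina libraries, at 543, 374 and 575 CPM, overlapped the mir550-3p libraries. DNAJC8 overlapped them too, at 297 CPM in Solid (1.2, adjusted p = 0.0229).

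Of the remaining J-domain genes, DNAJB5 had 31.0 CPM in Solid (log2 fold change 1.95, adjusted p = 0.00875), DNAJB12, a J protein of the endoplasmic reticulum membrane, had 92.2 CPM (1.63, adjusted p = 0.0132), and DNAJC11, a mitochondrial J protein, had 68.6 CPM (1.94, adjusted p = 0.0152). All 3 were above all of the 12 libraries. HSPA1A, an inducible HSP70, was higher at 1.43 CPM (2.87, adjusted p = 0.0131) but was not among the calls of DESeq2. Its near-identical copy HSPA1B shares its reads, so that the split between them is uncertain. DNAJC25-GNG10, a readthrough of DNAJC25 into its neighbour, was the lower gene, at 49.3 CPM (−1.37, adjusted p = 0.0448). Its call was lost in 8 of 12 leave-outs of a single library, at an adjusted p of up to 0.0829, and that of HSPA9 without mir550-3p replicate 1 (0.0597). The counts of DNAJC25-GNG10 were within 16 of those of GNG10 in every library, with 622 and 625 in Solid. GNG10, a G protein gene, had a log2 fold change of −1.36, and DNAJC25, which was not called, one of −0.65. The lower entry thus gives no measure of DNAJC25 apart from GNG10. DNAJB3 and DNAJB14 had the smallest log2 fold changes, −2.06 and −1.59, and were not called. Upper-quartile scaling gave 12 higher and 5 lower, with the median of all genes at −0.304 instead of −0.121.

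**Figure D5:**
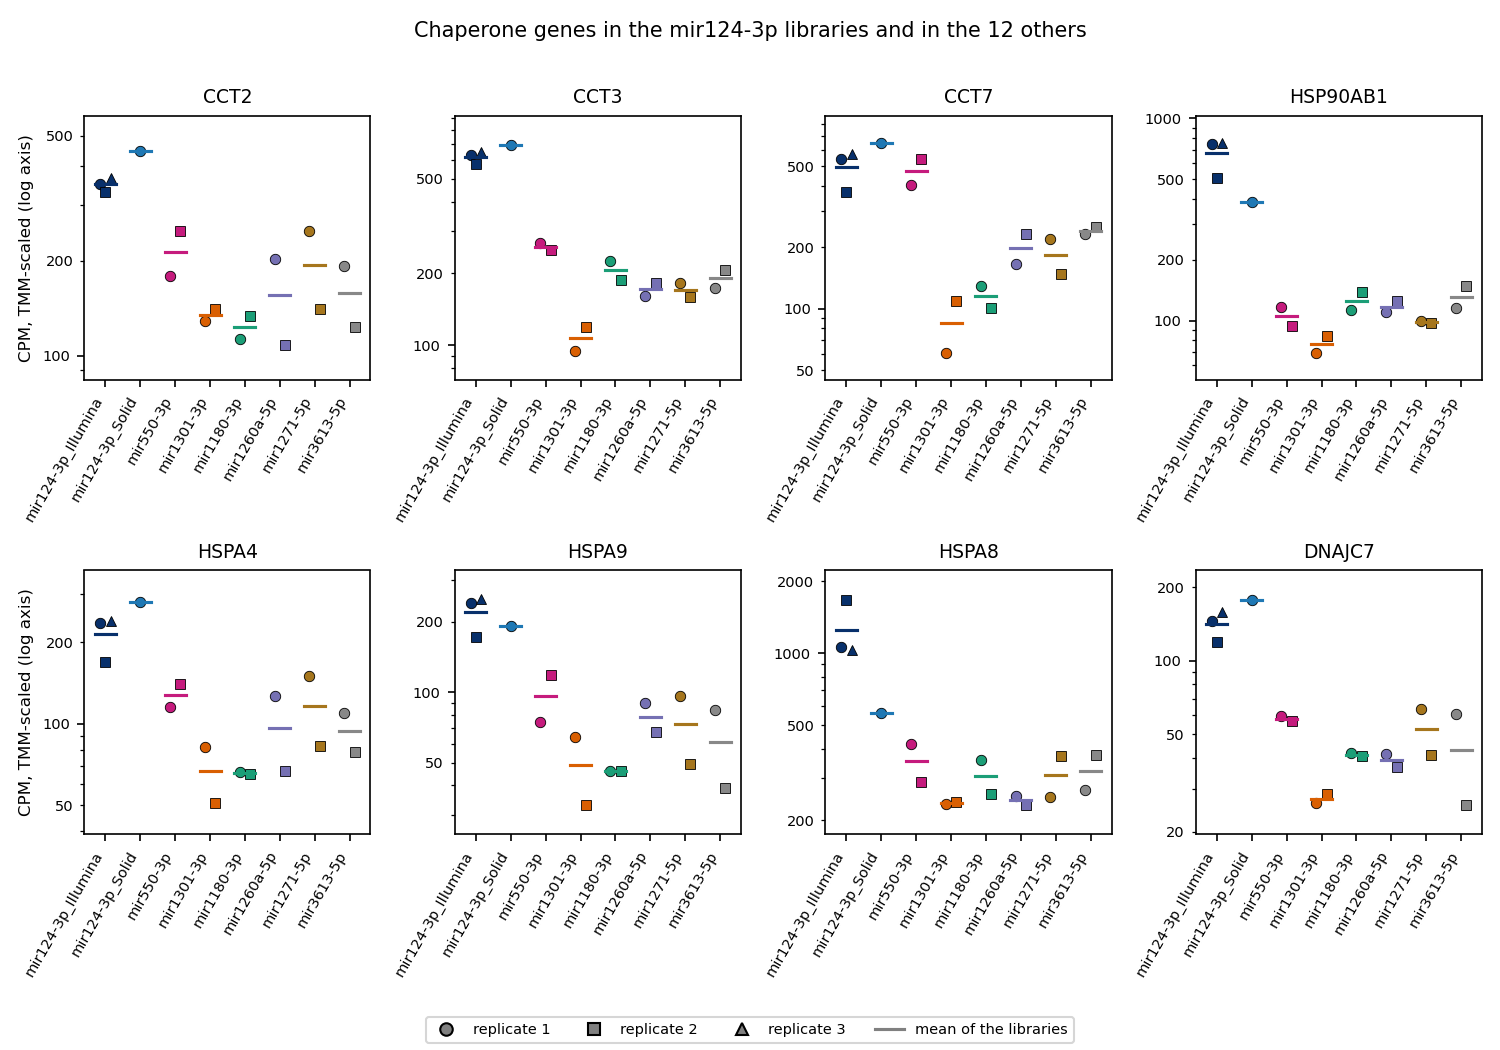
Level of 8 chaperone genes in all 16 libraries, as TMM-scaled CPM on a log axis, with a symbol per library and a line at the mean. CCT2, CCT3, HSP90AB1, HSPA4, HSPA9 and DNAJC7 are higher in all 4 mir124-3p libraries than in the 12 others, and HSPA8 is highest in the Illumina libraries (1066, 1676 and 1029 CPM).

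Between the 2 platforms of mir124-3p, Illumina against Solid, 9 chaperone genes were called, 4 higher and 5 lower in Illumina, 12.5% of 72. Over all 18271 genes 21.9% were called, 2.37% higher and 19.5% lower, and the median of all genes was −0.393. Upper-quartile scaling gave 5 higher and 4 lower, with the median of all genes at −0.273. Scaling by relative log expression gave 6 higher and 4 lower, with that median at −0.0598.

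DNAJC9, a J protein that handles histones H3 and H4, had 171, 171 and 190 CPM in Illumina and 61.5 CPM in Solid, a log2 fold change of 1.53 ± 0.46 (adjusted p = 0.0185). DNAJB6 had 219, 202 and 229 CPM in Illumina and 82.7 CPM in Solid (1.39 ± 0.46, adjusted p = 0.0351). The Illumina libraries of both genes were close together and well above the Solid library, but DNAJB6 was not called without Illumina replicate 1 or without replicate 3 (adjusted p up to 0.0736). DNAJC25 (2.89 ± 0.55, adjusted p = 0.000635) and DNAJC25-GNG10 (2.37 ± 0.44, adjusted p = 0.000487) were also higher. These 2 and GNG10 held identical counts in each Illumina library, 3525, 5194 and 4838. In the other 13 libraries DNAJC25-GNG10 differed from DNAJC25 and stayed close to GNG10. The 3 entries thus carried 1 measurement in Illumina. Over all genes 171 sets of entries (425 entries) were identical in the 3 Illumina libraries and 8 sets (16 entries) in the 12 libraries, at a minimum of 100 summed counts.

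CCT5 was lower in Illumina, at 263, 252 and 299 CPM, than in Solid, at 524 CPM (−0.95 ± 0.34, adjusted p = 0.0471), and the call was lost with upper-quartile scaling, with scaling by relative log expression, with DESeq2 and in 11 of 15 leave-outs of a library. The other lower genes were all scarce. DNAJB8 had 0 counts in each Illumina library and 12 counts (0.952 CPM) in Solid, at least 5.6-fold lower, and CCT8L2 had 0 and 10 counts (0.793 CPM), at least 4.67-fold lower; both bounds take 3 counts per library for 0. DNAJB7 had 0.779, 0.703 and 0.507 CPM in Illumina and 3.57 CPM in Solid (−2.42, adjusted p = 0.00369), and HSPA1A fell by 3.37 (adjusted p = 0.00427), a call that DESeq2 did not make (adjusted p = 0.188). HSPA8 was not called between the platforms (1.16 ± 0.42, adjusted p = 0.053), at 1066, 1676 and 1029 CPM in Illumina and 563 CPM in Solid, but was called higher with upper-quartile scaling, with scaling by relative log expression and with DESeq2. Illumina replicate 2, which held the highest HSPA8 and the lowest HSP90AB1 of the 3, is the library whose TNRC6A share stood apart. Without it 9 genes were called, 5 higher and 4 lower.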

How the data were processed

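The values are raw counts, which the authors deposited without normalisation as 1 table of genes (a RefSeq mRNA and symbol each) by 16 libraries. TopHat2 and hg19 stand in the submitters' processing notes. The TopHat2 version, and how reads were counted, on which strand and with which annotation, are not stated in the sources used here. Gene overlaps and miRNA positions are those of RefSeq on GRCh38.p14.

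The whole table was fitted with edgeR 4.0.16 (R 4.3.3) after filterByExpr at a minimum count of 10 and TMM scaling; group means were compared by two-sided, robust quasi-likelihood tests. Adjusted p-values (Benjamini-Hochberg, called under 0.05) run over all genes tested and are from edgeR unless DESeq2 (1.42.0) is named. Standard errors come from the test statistic. Log2 CPM used a prior count of 2. CPM of single libraries were scaled over all 16, and means over the libraries of the comparison. A count of 0 was bounded at 3 counts, which covers counting error only.

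Named genes were every called member, the 2 largest and 2 smallest log2 fold changes of each comparison, and the 3 most abundant of each class. The members, the lists and this rule were chosen with earlier results of these data known. Alternatives were other scalings, no filter, DESeq2, a replicate block, leaving out each library and leaving out a miRNA. Replicate numbers follow the titles. The steps were tested on simulated data. Results of 1 related list are not reported here.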

Additional observations from a re-analysis of the deposited data

How the results depend on the processing

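The counts of called chaperone genes for each miRNA, and for mir124-3p, stayed within 1.5 times of the main count under other scalings, no filter on low counts and DESeq2, but for the test of any difference, at 11 with upper-quartile scaling. With mir1301-3p left out, mir1180-3p had 2 called genes, the second being CCT7, where 454 of all 17008 genes were called. With mir550-3p left out, a choice made after seeing the data, mir1301-3p had 2, where 1108 of all 17624 genes were called. The test of any difference then had 2, where 419 of all 17624 genes were called. Leaving out 1 library at a time gave between 2 and 6 calls for mir550-3p, 0 (without its replicate 1) and 13 for mir1301-3p, 0 and 1 for mir1180-3p, 0 and 1 for mir1271-5p, 0 and 0 for mir1260a-5p and for mir3613-5p, 3 (without mir550-3p replicate 2) and 8 for any difference, 11 and 18 for mir124-3p Solid, and 7 and 11 for Illumina against Solid. With either library of mir1301-3p or of mir550-3p left out, most calls of that miRNA over all genes were lost. HSPA1B with mir1260a-5p lay between −0.25 without replicate 1 and 1.59 without replicate 2, and DNAJC11 with mir1271-5p between −0.073 without replicate 2 and 1.82 without replicate 1. The cause was not tested. Without the TMM factor the ratio of class sums, mir550-3p over the other 10 libraries, was 3.57 for DNAJA, 1.06 for DNAJB and 1.22 for DNAJC. It was 1.23 for HSPA, 0.875 for HSP90, 2.01 for CCT and 1.57 for all members. The CCT sum of mir1301-3p replicate 1 was then 6615 CPM, above the 5810 CPM of mir550-3p replicate 1. Without the most abundant gene of each class the ratio was 1.42 for DNAJA, 1.26 for DNAJB, 1.38 for DNAJC and 1.5 for HSPA. It was 1.19 for HSP90, 1.34 for CCT and 1.39 for all members. With the replicate number as a block the counts were 12 for mir1301-3p, 5 for mir550-3p, 1 for mir1180-3p, 7 for any difference and 0 for the other 3; over the 15 pairs of miRNAs the deviations of same-numbered libraries correlated at r from −0.142 to 0.365, with the 6 pairs among mir1260a-5p, mir1271-5p, mir1301-3p and mir3613-5p all over 0.1 and no other, so the numbers were not taken to pair all libraries, and the block could not be fitted for mir124-3p. With 2 libraries a miRNA and 1 for mir124-3p Solid, a gene that was not called is not shown to be equal between groups.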

Other observations

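Genes that work with these chaperones were described from lists of co-chaperones and exchange factors, other chaperones, prefoldin and CCT helpers, and the unfolded protein response. With mir550-3p 1 of 39 co-chaperones, 1 of 21 prefoldin and CCT helpers, 1 of 27 genes of the unfolded protein response and 0 of 28 other chaperones were called, all higher, where 1.51% of all genes were called. They were NUDCD2, an HSP90 co-chaperone (log2 fold change 1.12, adjusted p = 0.032), PFDN2, a prefoldin subunit that hands substrates to CCT (1.11, adjusted p = 0.0468), and ATF3, a stress-induced transcription factor (1.23, adjusted p = 0.0162). ATF3 averaged 167 ± 27.8 CPM in mir550-3p (SD, n = 2) and 72.4 ± 15.1 CPM in the other 10 libraries (SD, n = 10).

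With mir1301-3p, where 15.9% of all genes were called, 3 of 39 co-chaperones were lower, among them AHSA1, the activator of the HSP90 ATPase (−1.46, adjusted p = 0.015). The prefoldin-like genes UXT (−1.54, adjusted p = 0.00886) and PDRG1 (−1.19, adjusted p = 0.0223) were lower. Of 28 other chaperones 3 were called: lower was P4HB, a protein disulfide isomerase (−1.48, adjusted p = 0.0192), and higher were HSPB1, a small heat shock protein (1.72, adjusted p = 0.00865), and SERPINH1, the collagen chaperone (1.68, adjusted p = 0.0109); the fibroblast markers, 3 of them collagen genes, were higher in the same libraries, at sums of 47.8 and 141 CPM. Their part in these values was not tested. Of 27 genes of the unfolded protein response CRELD2 was higher (0.84, adjusted p = 0.0458) and TRIB3 lower (−1.99, adjusted p = 0.00389). TRIB3 was called higher with mir1271-5p (1.97, adjusted p = 0.00066), at a mean of 281 CPM. UXT was called higher with mir1180-3p (0.9976, adjusted p = 0.0434), at a mean of 189 CPM. Both miRNAs are part of what mir1301-3p was compared with, and their part in the falls of TRIB3 and UXT was not tested. The co-chaperone TOMM34 was called lower with mir1180-3p (−1.31, adjusted p = 0.0357).

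With mir124-3p Solid 8 of 39 co-chaperones (20.5%) and 7 of 27 genes of the unfolded protein response (25.9%) were higher and none lower, where 8.89% of all genes were called. Higher were also 4 of 21 prefoldin and CCT helpers (19%) and 4 of 29 other chaperones (13.8%), again with none lower. STIP1, which links HSP70 to HSP90 (2.62 ± 0.39, adjusted p = 0.000367), and PPP5C, an HSP90-bound phosphatase (2.45 ± 0.33, adjusted p = 0.000164), were at 116 and 105 CPM in the 1 Solid library and averaged 19.9 ± 9.25 and 19.7 ± 5.61 CPM in the 12 libraries (SD, n = 12). Between the platforms 21.9% of all genes were called. Called were 2 of 39 co-chaperones (5.13%), 1 of 21 prefoldin and CCT helpers (4.76%) and 2 of 27 genes of the unfolded protein response (7.41%). Of 29 other chaperones 7 were called (24.1%), 4 higher and 3 lower in Illumina. HSPD1 and HSPE1, the mitochondrial chaperonin and its lid, were higher in Illumina, at 1840 ± 111 and 263 ± 33.5 CPM (SD, n = 3), than in Solid, at 540.0 and 46.9 CPM (1.77 and 2.48, adjusted p = 0.00161 and 0.000244). The lower ones were PDIA6 (−1.20), HSPB7 (−7.27) and CRYAA (−4.33).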
